A study of Homo sapiens with 8 samples.

Results

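The genes described here are 46 genes that act in DNA replication and at the G1/S transition of the cell cycle, among 48162 genes listed in each library. They were chosen by symbol, and each of the 46 symbols matched 1 row in all 8 libraries. RNA-seq had been run on total RNA of KYSE70 and KYSE450, both human esophageal squamous cell carcinoma lines grown in culture, at passages 5 to 10. The study asked how the long noncoding RNA NMR affects these cells, so in each line NMR was either raised or lowered. There was 1 library of each line in 4 groups, so the 2 lines are the only replicates of a group. In the overexpression group the cells had been transfected with a pcDNA3.1 plasmid to raise NMR, and the overexpression control is the matching control of that arm. In the knockdown group the cells had been infected with lentivirus made in HEK 293T cells, with the titles naming an shRNA, and the knockdown control is the control of that arm. The cargo of the control vectors, the shRNA sequence, the times after delivery and any clonal selection were not stated in the sources used here. No gene named NMR was listed, so the level of the targeted RNA was not checked.

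Replication begins in G1, when the origin recognition complex (ORC) with CDC6 and CDT1 loads the MCM2 to MCM7 ring, the core of the replicative helicase, onto origins. At the G1/S transition cyclin E and E2F transcription factors drive entry into S phase. CDC45 and the GINS complex then join the MCM ring to form the active helicase. Polymerase alpha with primase lays down primers, the RFC clamp loader places the PCNA clamp, and polymerases delta and epsilon extend the strands. Many genes of this set are transcribed at G1/S under E2F control, and their RNA is abundant in dividing cells such as carcinoma lines.

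The libraries held 26401805 to 37937856 whole reads each, recovered from the deposited values, so that even the lowest of the 46 genes, CCNE2, had at least 129 reads in a library and the most abundant, TYMS, up to 44074. Levels are given in FPKM, which divides reads by gene length and by the library total, which allows levels of different genes to be compared. Mitochondrially encoded messages took 8.63% of the summed FPKM of the KYSE70 knockdown library and 3.84% to 5.75% of the others. Squamous markers such as KRT5 (at least 4156 FPKM) and TP63 (at least 140.2 FPKM) were present in every library; 9 of 10 reached 1 FPKM in each library, KRT17 staying at 0.341 to 0.873 FPKM in KYSE70. The leukocyte markers summed to at most 1.39 FPKM, and PTPRC to at most 0.0586. The fibroblast markers summed to 27.1 to 52.3 FPKM in KYSE70 and 32.0 to 39.6 in KYSE450, nearly all of it collagen, with DCN at 0 to 0.0336.

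All 46 genes had a mean of at least 1 FPKM, the minimum for testing, which 14311 genes met. Their mean levels ran over a wide range. TYMS, thymidylate synthase, which makes the thymidine nucleotide for DNA, led with a mean of 517 FPKM over the 8 libraries. MCM7 (363 FPKM), POLD2, the small regulatory subunit of polymerase delta (311 FPKM), MCM4 (291 FPKM) and PCNA (233 FPKM) came next. At the low end stood the regulators and origin factors: E2F1 at 18.0, the polymerase epsilon subunit POLE2 at 17.7, ORC1 at 13.4, the hemimethylated-DNA reader UHRF1 at 13.3 and cyclin E2 (CCNE2) at 5.51 FPKM. The 6 subunits of the MCM ring, which form a complex of 1 copy each, did not have equal RNA levels. The highest of the 6 exceeded the lowest by 4.10 to 7.88 times within a library; MCM7 was highest in 7 of the 8 libraries and MCM4 in the KYSE70 knockdown library. Summed over the 46 genes, the level was 6361 and 4131 FPKM in the overexpression libraries of KYSE70 and KYSE450, and 6550.5 and 4487 in their controls. It was 4259 and 3581 FPKM in the knockdown libraries of these lines, and 5011 and 3503 in their controls. The sum was thus higher in KYSE70 than in KYSE450 within every group, and lower in the knockdown arm than in the overexpression arm within both lines. Leaving out TYMS, it was 3841 to 5157 FPKM in KYSE70 and 3448 to 4363 in KYSE450.

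Promoter sequences were examined because E2F factors act through short words near transcription starts. RefSeq promoter windows on GRCh38.p14 (250 bases before to 50 after the start) were matched for 39 of the 46 genes; those without a match were MCM4, MCM5, GINS4, CCNE2, POLD3, RPA2 and RPA3. An E2F-type word (TTCCCGC in its first form, TTCGCGC in the second, TTGCCGC in the third and TTGGCGC in the last, on either strand) was found in 29 of 39 (74.4%), against 21.2% of 9377 matched promoters of tested genes and 13.1% of all 27305. A CCAAT word on either strand, the recognition word of NF-Y, was found in 59.0% of the 39, against 37.1% of tested and 35.7% of all promoters. Both words occurred in 46.2% of the 39, against 8.2% and 4.7%. In 5 of the promoters an E2F-type and a CCAAT word overlapped. The 150 bases before the start are shown for genes that the later results turn on, 5′ to 3′ on the strand of the gene, with E2F-type and CCAAT words on either strand in capitals. TYMS is at chr18:657503-657652 (plus strand), GINS2 at chr16:85688955-85689104 (minus), FEN1 at chr11:61792761-61792910 (plus), UHRF1 at chr19:4909351-4909500 (plus), PCNA at chr20:5126623-5126772 (minus) and PRIM1 at chr12:56752324-56752473 (minus).
TYMS: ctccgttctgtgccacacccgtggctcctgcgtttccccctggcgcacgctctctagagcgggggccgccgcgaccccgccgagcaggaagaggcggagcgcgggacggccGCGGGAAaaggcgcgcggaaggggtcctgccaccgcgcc
GINS2: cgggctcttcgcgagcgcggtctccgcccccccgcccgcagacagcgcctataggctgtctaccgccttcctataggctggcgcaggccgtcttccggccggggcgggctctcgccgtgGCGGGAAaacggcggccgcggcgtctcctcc
FEN1: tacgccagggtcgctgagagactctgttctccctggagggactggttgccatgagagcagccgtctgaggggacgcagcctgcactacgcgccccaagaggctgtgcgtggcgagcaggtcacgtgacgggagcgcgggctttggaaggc
UHRF1: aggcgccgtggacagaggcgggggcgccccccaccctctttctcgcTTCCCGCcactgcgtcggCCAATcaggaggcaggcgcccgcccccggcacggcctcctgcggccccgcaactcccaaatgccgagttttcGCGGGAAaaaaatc
PCNA: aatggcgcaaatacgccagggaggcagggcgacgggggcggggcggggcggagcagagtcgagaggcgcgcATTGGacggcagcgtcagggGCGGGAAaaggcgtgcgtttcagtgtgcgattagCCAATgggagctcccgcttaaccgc
PRIM1: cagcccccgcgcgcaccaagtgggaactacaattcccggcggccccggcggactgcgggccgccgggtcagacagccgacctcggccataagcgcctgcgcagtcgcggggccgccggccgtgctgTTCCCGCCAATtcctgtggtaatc
The TYMS, GINS2 and PCNA windows each hold the E2F-type word as GCGGGAA, which is TTCCCGC read on the other strand, close to the start. UHRF1 holds it in both orientations. In PRIM1 the E2F-type word and CCAAT share letters. The FEN1 window holds neither word, so these words are not common to all genes of the set.

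The first comparison was between the cell lines, averaged over the 4 groups. KYSE70 had more RNA than KYSE450 for thymidylate synthase, the clamp loader subunits RFC4 and RFC2, most helicase activators and E2F1, and less for the licensing factors CDT1 and CDC6, for RFC1 and for thymidine kinase. By limma on log2(FPKM + 1) with Benjamini-Hochberg adjustment over 14311 genes, 24 of the 46 differed, 19 higher and 5 lower in KYSE70. The background was high: 54% of all tested genes were called between the lines, 26.6% higher and 27.4% lower. The share called among the 46 was therefore near the background, while more of the calls were higher than lower. The median difference was 0.17 over the 46 genes and -0.02 over all tested genes, as KYSE70 minus KYSE450 on the log2 scale. All 4 KYSE70 libraries lay above all 4 KYSE450 libraries for 13 of the 46 (24.1% of all genes) and below them for 5 (24.5% of all genes).

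TYMS showed the widest separation. It had 1323, 1393, 418 and 659 FPKM in the KYSE70 overexpression, overexpression control, knockdown and knockdown control libraries, against 102, 124, 62.7 and 54.7 FPKM in the KYSE450 libraries of the same groups. The lowest KYSE70 library was above the highest KYSE450 library, and the difference was 3.36 ± 0.18 on the log2 scale (SE; limma adjusted p 1.58e-05, higher in 4 of 4 groups). By the GENCODE 29 annotation 39.1% of the TYMS exon bases overlap ENOSF1 on the opposite strand, which averaged 195 FPKM, and 7.4% overlap TYMSOS. Whether the counting used strand was not stated, so how reads in the shared bases were counted is not known. The other nucleotide supply genes did not follow TYMS as a group. RRM2, the regulated subunit of ribonucleotide reductase, had 148, 158, 70.5 and 99.9 FPKM in KYSE70, against 66.5, 78.0, 59.7 and 50.8 FPKM in KYSE450 (difference 0.84 ± 0.17, SE, limma adjusted p 0.00544), with the lowest KYSE70 library under the highest of KYSE450. TK1, the thymidine salvage kinase, was lower in KYSE70, with 162, 167, 94.9 and 125 FPKM against 303, 329, 210.5 and 184 FPKM in KYSE450, a difference of -0.89 ± 0.14 (SE, limma adjusted p 0.00155) with no overlap of the lines. RRM1, the large reductase subunit, differed by 0.17 and was not called.

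**Figure D1:**
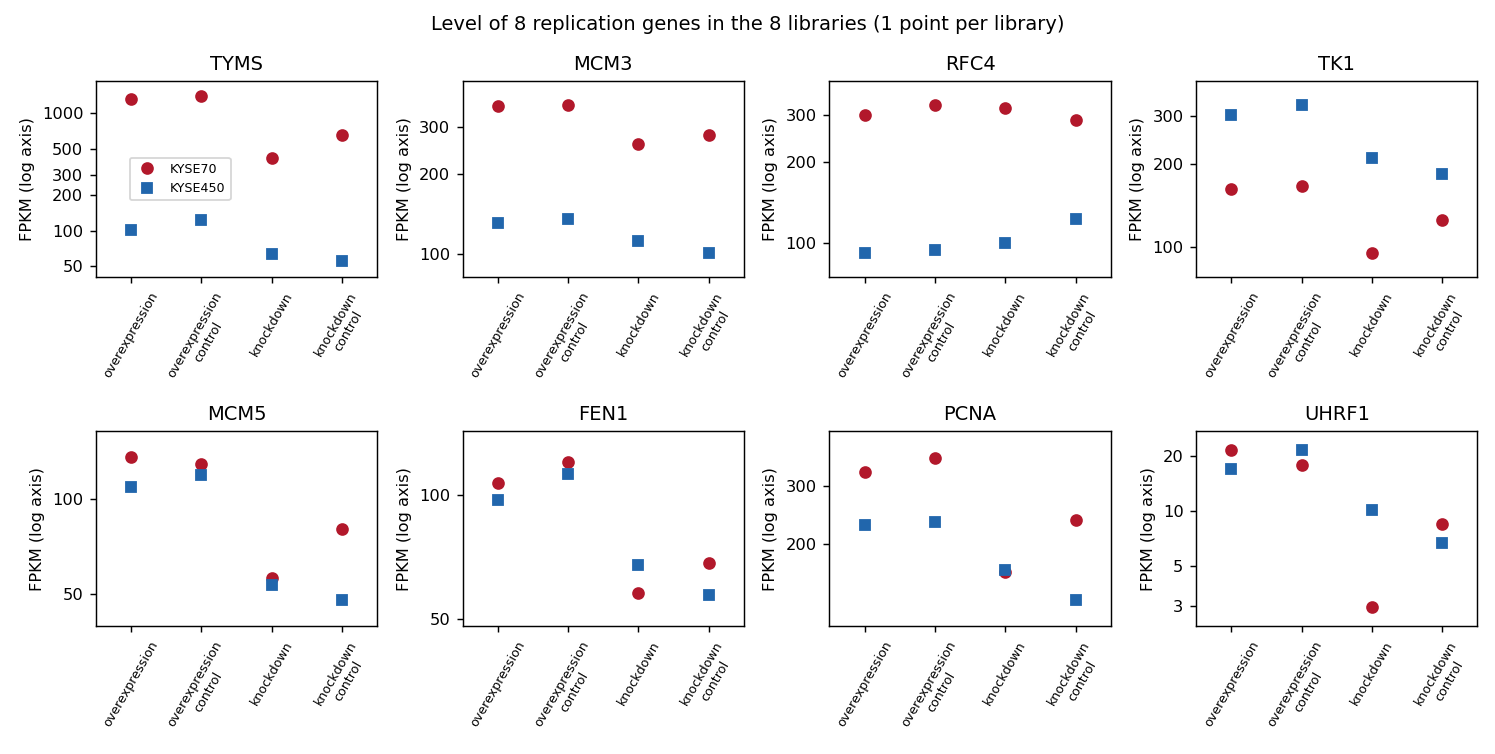
Level of 8 genes in each library, in FPKM on a log axis; circles are KYSE70, squares KYSE450, 1 point per library, and each treated group stands left of its control. TYMS, MCM3 and RFC4 separate by line with KYSE70 above, TK1 with KYSE70 below, while MCM5, FEN1, PCNA and UHRF1 sit lower in the knockdown arm of each line.

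Of the MCM ring genes and MCM10, 3 of 7 were called higher in KYSE70 and none lower. Of all tested genes 26.6% were called higher and 27.4% lower. MCM3 stood apart from the other ring subunits, with 358, 363, 259 and 280.5 FPKM in KYSE70 against 131, 135, 112 and 101 FPKM in KYSE450. Every KYSE70 library was above every KYSE450 library (1.38 ± 0.12, SE, limma adjusted p 0.000102). MCM4 had 392, 393, 295 and 299 FPKM in KYSE70, against 254, 289, 205 and 198 FPKM in KYSE450, again without overlap (0.55 ± 0.12, SE, limma adjusted p 0.00685). MCM10, which helps activate the helicase, had 24.9, 27.2, 20.3 and 21.0 FPKM in KYSE70 against 18.1, 20.3, 18.3 and 14.6 FPKM in KYSE450. Its smaller difference of 0.37 passed the test (limma adjusted p 0.0420). MCM2, MCM5, MCM6 and MCM7 had differences of 0.16, 0.31, -0.03 and -0.01 and were not called.

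Among the helicase activators, 4 of 5 were called higher in KYSE70 and 1 lower, beside 26.6% and 27.4% of all tested genes. GINS3 had 65.2, 71.3, 39.6 and 46.5 FPKM in KYSE70, against 26.8, 29.6, 19.5 and 14.8 FPKM in KYSE450 (1.27 ± 0.14, SE, limma adjusted p 0.000309). CDC45, which bridges MCM and GINS, had 110.2, 104, 69.2 and 98.9 FPKM in KYSE70 against 42.9, 45.8, 33.5 and 41.7 FPKM in KYSE450 (1.19 ± 0.11, SE, limma adjusted p 0.000178). The lines did not overlap for either gene. GINS1 had 71.4, 69.6, 73.8 and 64.4 FPKM against 52.2, 55.8, 41.3 and 27.8 FPKM in KYSE450 (0.69 ± 0.17, SE), and GINS4 had 27.8, 26.9, 21.6 and 26.0 FPKM against 16.7, 18.0, 16.1 and 17.6 FPKM in KYSE450 (0.55 ± 0.12, SE). GINS2, a subunit of the same 4-protein complex, went the other way with 52.8, 63.6, 29.02 and 39.5 FPKM in KYSE70 and 71.5, 83.2, 50.5 and 48.0 FPKM in KYSE450 (-0.47 ± 0.13, SE, limma adjusted p 0.0182). Within 1 complex, GINS3 was thus higher and GINS2 lower in KYSE70. Of the origin and licensing factors, 2 of 4 were called lower in KYSE70 and none higher, to be read against the same shares. CDT1, which brings MCM to origins, had 43.5, 49.6, 47.4 and 56.3 FPKM in KYSE70 and 71.1, 70.4, 80.7 and 79.0 FPKM in KYSE450 (-0.61 ± 0.11, SE, limma adjusted p 0.00392). CDC6, its partner ATPase, had 70.1, 74.8, 58.4 and 62.9 FPKM in KYSE70 against 97.1, 110.0, 81.4 and 78.1 FPKM in KYSE450 (-0.45 ± 0.11, SE, limma adjusted p 0.0119). The lines did not overlap for either. ORC1 and ORC6 had differences of -0.16 and -0.29 and were not called.

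The 5 RFC subunits form 1 clamp loader complex, with the large subunit RFC1 specific to the replicative form, yet their line differences had opposite signs. RFC4 had 302, 329, 319 and 289 FPKM in KYSE70, against 91.5, 94.3, 100.01 and 123 FPKM in KYSE450 (1.60 ± 0.14, SE, limma adjusted p 0.000109). RFC2 had 112, 123, 113 and 117 FPKM in KYSE70, against 67.2, 70.0, 62.0 and 70.6 FPKM in KYSE450 (0.78 ± 0.11, SE, limma adjusted p 0.000966). The lines did not overlap for RFC4 or RFC2. RFC1 had 70.3, 73.5, 138 and 95.5 FPKM in KYSE70 and 132, 142, 158 and 175 FPKM in KYSE450 (-0.73 ± 0.16, SE, limma adjusted p 0.00737), with the KYSE70 knockdown library reaching into the KYSE450 range. RFC3 and RFC5 had differences of -0.15 and -0.29 and were not called. PCNA had 331, 367, 164 and 237 FPKM in KYSE70, against 229, 234, 166 and 135 FPKM in KYSE450 (0.49 ± 0.16, SE, limma adjusted p 0.0359), with overlap of the lines.

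Both polymerase alpha subunits were higher in KYSE70, but no subunit of primase, polymerase delta or polymerase epsilon was called. POLA1, the catalytic subunit, had 36.7, 36.0, 26.2 and 27.6 FPKM in KYSE70 and 21.2, 23.7, 20.3 and 14.1 FPKM in KYSE450 (0.65 ± 0.14, SE, limma adjusted p 0.00649). POLA2, its accessory subunit, had 46.7, 49.7, 37.2 and 36.4 FPKM in KYSE70 and 31.4, 40.2, 28.8 and 28.0 FPKM in KYSE450 (0.40 ± 0.11, SE, limma adjusted p 0.0224). Only RPA2 of the 3 subunits of the single-strand binding protein RPA was called, with 66.4, 70.9, 52.6 and 62.4 FPKM in KYSE70 against 48.8, 51.2, 40.9 and 53.2 FPKM in KYSE450 (0.37 ± 0.11, SE, limma adjusted p 0.0259). Okazaki fragment genes were close between the lines, with differences of 0.07 for the flap nuclease FEN1 and 0.03 for the ligase LIG1, neither called. Of the G1/S regulators, E2F1 had 25.7, 29.97, 15.9 and 27.4 FPKM in KYSE70 and 12.7, 12.3, 9.77 and 9.89 FPKM in KYSE450 (1.05 ± 0.16, SE, limma adjusted p 0.00152), without overlap. CCNE2 had 8.05, 8.01, 4.71 and 6.32 FPKM in KYSE70 and 4.93, 5.19, 3.35 and 3.54 FPKM in KYSE450 (0.56 ± 0.15, SE, limma adjusted p 0.0155), while CCNE1, the other cyclin E, differed by -0.09 and was not called. For CCNE2, 37.0% of the exon bases overlap INTS8 on the opposite strand. Both large subunits of the histone chaperone CAF-1 were higher in KYSE70. CHAF1A had 178, 182, 101 and 154 FPKM in KYSE70 and 121, 123, 98.5 and 97.1 FPKM in KYSE450 (0.45 ± 0.14, SE). CHAF1B had 33.7, 37.2, 36.0 and 36.0 FPKM in KYSE70 and 28.9, 30.9, 25.4 and 22.8 FPKM in KYSE450 (0.40 ± 0.13, SE).

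**Figure D2:**
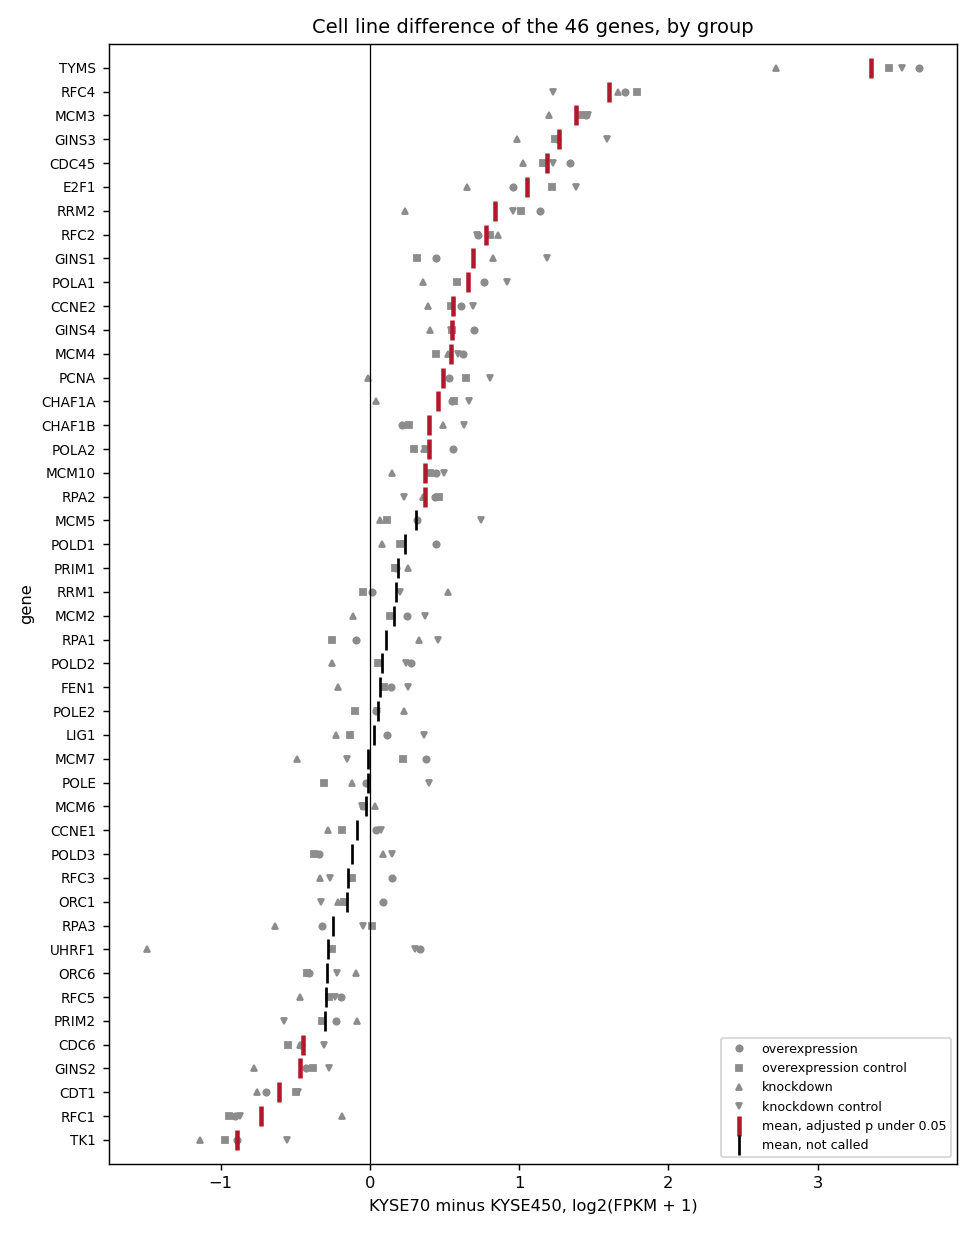
KYSE70 minus KYSE450 on the log2(FPKM + 1) scale for the 46 genes, 1 row per gene; grey symbols are the difference within each of the 4 groups and the upright bar is their mean, red where limma's adjusted p was under 0.05. TYMS stands at 3.36, RFC4 at 1.60 and MCM3 at 1.38, and TK1 is lowest at -0.89.

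Mitochondrial messages also differed by line, at 5.13% to 8.63% of the summed FPKM in KYSE70 and 3.84% to 4.63% in KYSE450, and their part in the line difference was not tested. Of the 24 calls, 14 held in each of 15 alternatives, among them TYMS, RFC4, MCM3, GINS3, CDC45, E2F1, RFC2, TK1 and CDT1. The number called was 14 without the overexpression library of KYSE70 or that of KYSE450, and 15 without the overexpression control of either line, when 42.5% to 44.8% of all genes were called.

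Because carcinoma lines gain and lose chromosome segments, the line difference of the genes beside each of the 46 was set beside its own (up to 10 tested genes on each side in GENCODE 29; DNA copy number itself was not measured). Of 45 genes with neighbours, 33 were on the same side of 0 as the median of their neighbours. Across them Spearman's rho was 0.54 (45 genes in the same 8 libraries). Other tested genes were not compared with their neighbours in this way, so these values have no background beside them. RFC1 on chromosome 4 had a difference of -0.73 and its neighbours a median of -0.82, with 14 of 20 neighbours called lower. CDT1 on chromosome 16 had -0.61 beside -0.67, POLA1 on chromosome X 0.65 beside 0.82, and GINS4 on chromosome 8 0.55 beside 0.77. For these genes the neighbours differed between the lines by about as much as the gene. Other genes stood away from their neighbours. TYMS on chromosome 18 had 3.36 beside a neighbour median of 0.48, and none of its 16 neighbours was above it. MCM3 on chromosome 6 had 1.38 beside -0.20, GINS3 on chromosome 16 had 1.27 beside 0.10, and E2F1 on chromosome 20 had 1.05 beside -0.05. CDC45 on chromosome 22 had 1.19 beside 0.28, and RFC4 on chromosome 3 had 1.60 beside 0.58. In all, 14 of 45 genes were more than 0.5 log2 units from the median of their neighbours.

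**Figure D3:**
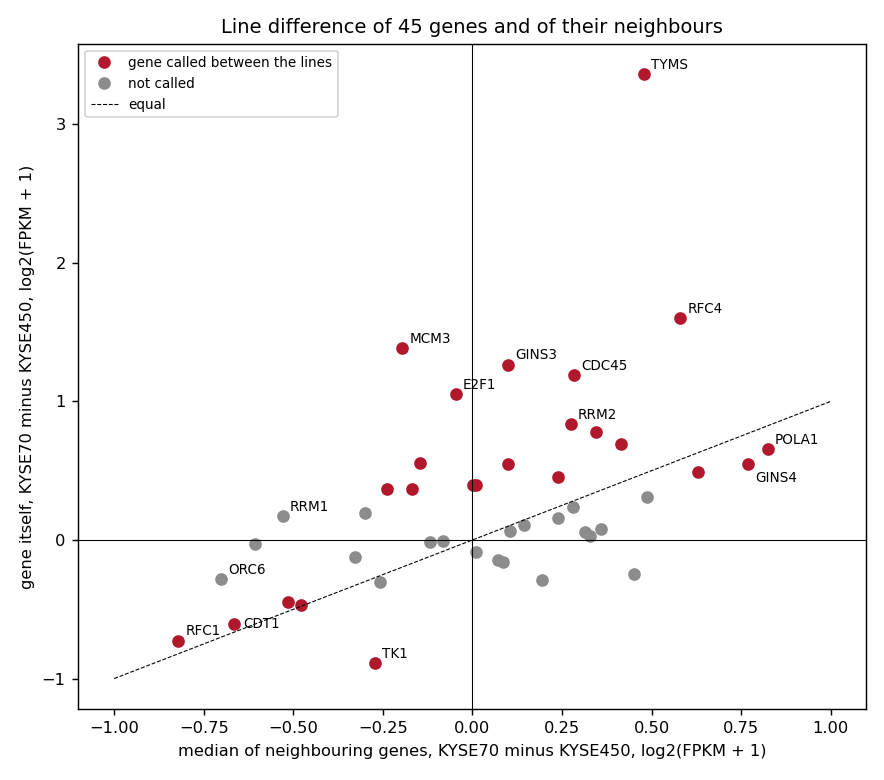
KYSE70 minus KYSE450 on the log2(FPKM + 1) scale, for each of 45 genes (vertical axis) against the median of up to 10 tested genes on each side of it (horizontal axis); red points were called between the lines and the dashed line marks equality. RFC1, CDT1, POLA1 and GINS4 lie near the dashed line, and TYMS at 3.36, MCM3 at 1.38 and E2F1 at 1.05 lie far above it.

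The second comparison was between the delivery arms, knockdown and its control against overexpression and its control. Of the 46 genes, 5 passed the test, all of them lower in the lentiviral knockdown arm than in the plasmid overexpression arm, and most of the others had differences of the same sign. The arms also differ in any handling that went with them, and the control libraries show the difference too, so delivery, batch and time cannot be told apart here; in each line 1 of the 2 libraries of an arm was a control, and the other was meant to raise NMR in the overexpression arm and to lower it in the knockdown arm. The arm difference was below 0 for 39 of the 46 genes, against 41.8% of all tested genes, and the median was -0.28 for the 46 and 0.07 for all. Both knockdown arm libraries were below both overexpression arm libraries in each line for 19 of 46 (41.3%, against 10.6% of all genes). They were above in each line for 4 of 46 (8.7%, against 20% of all genes): PRIM1, PRIM2, RFC1 and CCNE1. With TMM or median-ratio scaling 27 were below (58.7%, against 14.8% of all genes under either scaling). Under these scalings 2 were above (4.3%, against 15.5% of all genes with TMM and 15.8% with median-ratio scaling). In bulk RNA, fewer cells in S phase and less of these messages per cell cannot be told apart.

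By limma 5 of the 46 fell in the knockdown arm and none rose, beside 4.02% of all tested genes called in either direction and 1.01% called lower. MCM5 had 55.9 and 53.2 FPKM in the knockdown libraries of KYSE70 and KYSE450 and 80.4 and 47.6 in the knockdown controls, against 136 and 109 in the overexpression libraries and 129.6 and 119.5 in the overexpression controls. All 4 knockdown arm libraries lay under the other 4, a difference of -1.07 ± 0.15 (SE, limma adjusted p 0.0272). It was the ring subunit with the largest arm difference of the 6, the others lying between -0.17 for MCM6 and -0.42 for MCM7. FEN1, which trims Okazaki fragment flaps, had 57.9 and 67.4 FPKM in the knockdown libraries and 68.3 and 57.2 in their controls, against 107 and 97.3 in the overexpression libraries and 119.7 and 112 in their controls. The groups did not overlap (-0.79 ± 0.12, SE, limma adjusted p 0.0323). TYMS, with the values given above, was lower in the knockdown arm within each line (-1.15 ± 0.18, SE, limma adjusted p 0.0332). GINS2 had 29.02 and 50.5 FPKM in the knockdown libraries and 39.5 and 48.0 in their controls, against 52.8 and 71.5 in the overexpression libraries and 63.6 and 83.2 in their controls (-0.70 ± 0.13, SE, limma adjusted p 0.0403). GINS3 differed by -0.68 ± 0.14 (SE, limma adjusted p 0.0472), with every knockdown arm library under both overexpression arm libraries of its line. The KYSE70 knockdown library, which had the highest mitochondrial share (8.63%), held the lowest KYSE70 level of MCM5, FEN1, TYMS, GINS2 and GINS3. Without it the median of the 46 was -0.25, and the differences were -0.99 for MCM5, -0.70 for FEN1, -0.94 for TYMS, -0.59 for GINS2 and -0.58 for GINS3.

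UHRF1, which recruits the maintenance methyltransferase DNMT1 to newly replicated DNA, had the largest arm difference of the 46 but missed the threshold. It had 2.96 and 10.1 FPKM in the knockdown libraries of KYSE70 and KYSE450 and 8.45 and 6.67 in their controls, against 21.7 and 17.0 in the overexpression libraries and 18.0 and 21.7 in their controls. All 4 knockdown arm libraries were under the other 4, but they were spread widely (-1.45 ± 0.31, SE, limma adjusted p 0.0515). TK1 at -0.64 (limma adjusted p 0.0517) and PCNA at -0.72 (limma adjusted p 0.0543) were as close to the threshold. PRIM1, the catalytic primase subunit, was among the 4 that lay higher: it had 58.4 and 48.8 FPKM in the knockdown libraries and 52.8 and 46.8 in their controls, against 43.6 and 38.5 in the overexpression libraries and 43.9 and 38.9 in their controls. Its difference of 0.32 ± 0.11 (SE, limma adjusted p 0.119) was not called.

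**Figure D4:**
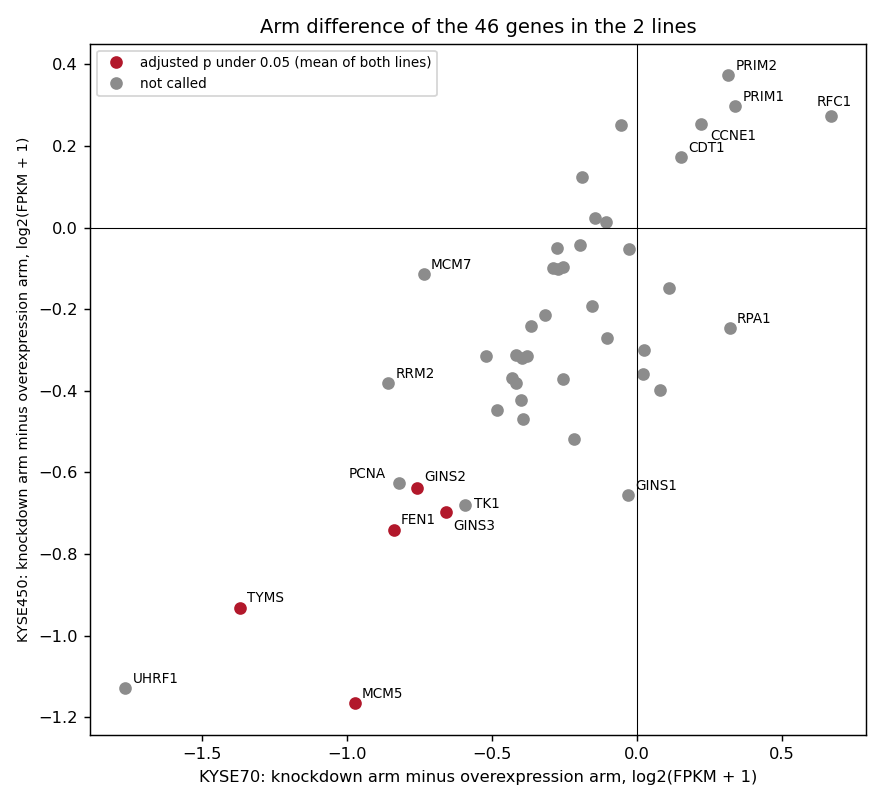
Knockdown arm minus overexpression arm on the log2(FPKM + 1) scale in KYSE70 (horizontal axis) and KYSE450 (vertical axis), 1 point per gene for the 46 genes; red points had a limma adjusted p under 0.05 for the mean of both lines. Most points lie in the lower left, where UHRF1, TYMS and MCM5 are farthest out, and PRIM1, PRIM2, RFC1 and CCNE1 lie in the upper right.

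The controls alone, which are part of the comparison above, also lay lower in the knockdown arm. The knockdown control was lower than the overexpression control in both lines for 35 of 46 genes (76.1%, against 24.3% of all genes), with a median of -0.30. By limma 0 of the 46 and 0% of all genes were called between the controls, with 15 of the 46 and 2078 of 14311 genes at an unadjusted p under 0.05. The 5 calls of the full comparison were 8 with voom on the recovered reads (6.16% of all genes). The number was 0, with 0% of all genes, without a filter on low genes and without the cell line as a block. The 5 calls were lost with most single libraries left out, and the number called among all genes changed as well. With each library left out in turn, the median of the 46 was -0.32 to -0.23. The line difference of the arm difference was called for 0 of the 46 and for 6.37% of all genes (4.84% higher and 1.54% lower, limma); 4 of the 46, GINS1, RPA1, MCM7 and POLD3, had an unadjusted p under 0.05, and voom also called 0 of the 46.

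By promoter, the 29 genes with an E2F-type word had a median arm difference of -0.34 and the 10 matched genes without one -0.23. Of the 29 genes with the word 24 were below 0, and of the 10 without it 8.

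The third comparison was overexpression of NMR against its control. No replication gene was called, and the shifts were small. By limma 0 of 46 genes, and 0% of all tested genes, differed; 0 of the 46 and 148 of 14311 genes had an unadjusted p under 0.05, and voom called 0 as well. The fitted change was below 0 for 44 of 46 genes (43 with TMM or median-ratio scaling), against 53.5% of all genes, with a median of -0.08 for the 46 and -0.01 for all. In both lines 30 of 46 were lower with overexpression (65.2%, against 27.6% of all genes) and 0 higher (against 23%). The median change was -0.04 in KYSE70 and -0.12 in KYSE450. The largest same-sign changes belonged to GINS2, POLA2 and POLE2. GINS2 had 52.8 and 71.5 FPKM with overexpression in KYSE70 and KYSE450, against 63.6 and 83.2 in the controls (-0.24 ± 0.16, SE). POLA2 had 46.7 and 31.4 FPKM with overexpression, against 49.7 and 40.2 in the controls (-0.22 ± 0.14, SE). POLE2 had 17.8 and 17.3 FPKM with overexpression, against 19.7 and 21.1 in the controls (-0.21 ± 0.15, SE). For POLE2 both overexpression libraries were under both controls, and for GINS2 and POLA2 the groups overlapped across lines.

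The fourth comparison was knockdown of NMR against its control. Again no replication gene was called, and the lines moved apart: the median change of the 46 genes was -0.20 in KYSE70 and 0.07 in KYSE450. By limma 0 of 46 and 0% of all genes differed; 3 of the 46 and 1794 of 14311 genes had an unadjusted p under 0.05, and voom called 0 of the 46 and 4 genes in all. Both lines were higher with knockdown for 12 of 46 genes (26.1%, against 27.1% of all genes) and both lower for 9 (19.6%, against 25.9%). For 21 genes the knockdown library was lower in KYSE70 and higher in KYSE450 (45.7%, against 24.4% of all genes). These include 5 MCM genes, PCNA, FEN1, LIG1, TYMS, TK1, RRM2 and UHRF1. The first 3 of the genes that were higher in both lines were GINS1, MCM6 and RFC5. GINS1 had 73.8 and 41.3 FPKM with knockdown in KYSE70 and KYSE450, against 64.4 and 27.8 in the controls (0.37 ± 0.15, SE, limma adjusted p 0.391). MCM6 had 85.4 and 83.2 FPKM with knockdown, against 67.0 and 69.6 in the controls (0.30 ± 0.13, SE). RFC5 had 59.2 and 82.5 FPKM with knockdown, against 54.8 and 64.6 in the controls (0.23 ± 0.14, SE). MCM6 was the only one of these in which both knockdown libraries lay above both controls. The first 3 of the genes lower in both lines were MCM7, CDC45 and E2F1. MCM7 had 222 and 312 FPKM with knockdown, against 338 and 375 in the controls (-0.43 ± 0.17, SE, limma adjusted p 0.381), with both knockdown libraries under both controls. CDC45 had 69.2 and 33.5 FPKM with knockdown, against 98.9 and 41.7 in the controls (-0.41 ± 0.14, SE, limma adjusted p 0.361). E2F1 had 15.9 and 9.77 FPKM with knockdown, against 27.4 and 9.89 in the controls, so that nearly all of its change of -0.38 ± 0.20 (SE) came from KYSE70.

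**Figure D5:**
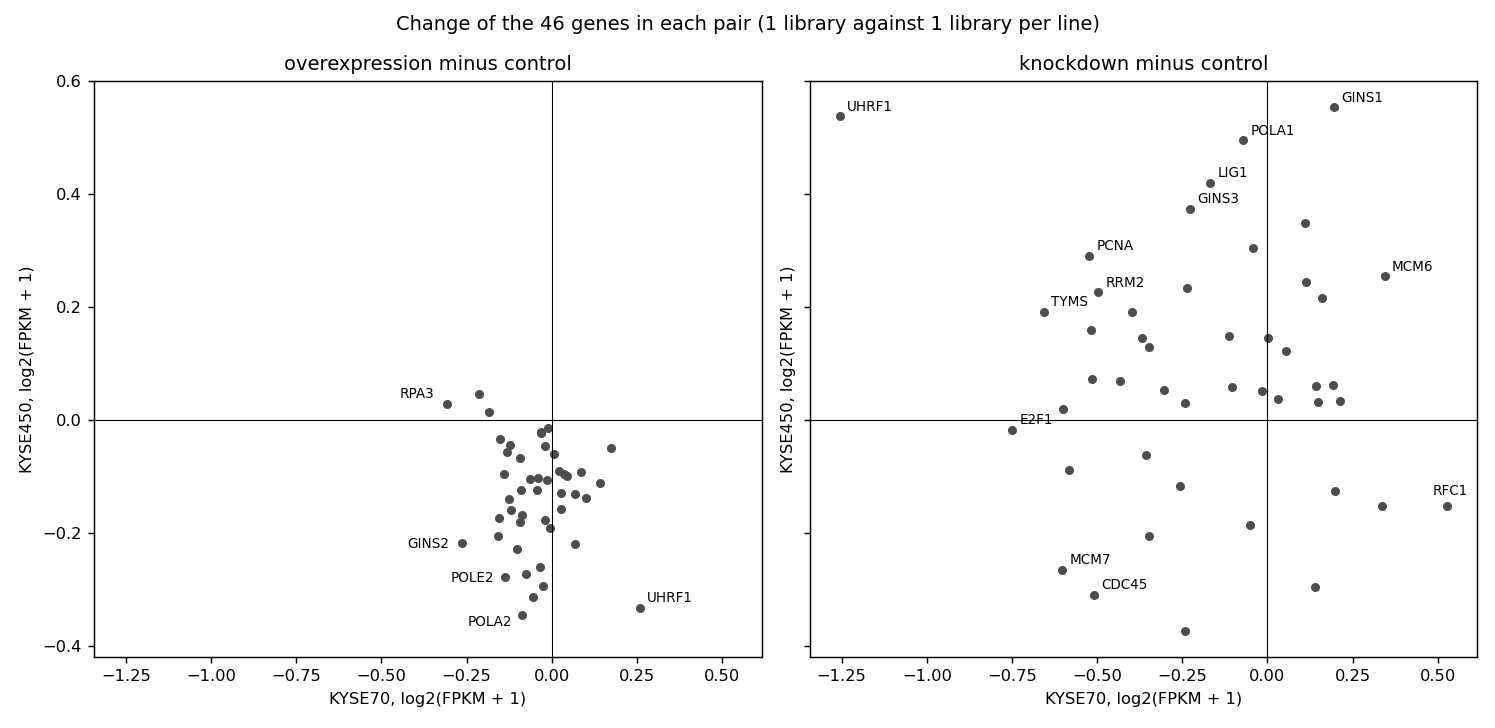
Change of the 46 genes on the log2(FPKM + 1) scale in KYSE70 (horizontal axis) and KYSE450 (vertical axis), overexpression minus control on the left and knockdown minus control on the right, 1 library against 1 library per line and point. Overexpression points cluster near 0 medians -0.04 (KYSE70) and -0.12 (KYSE450), and knockdown points spread wider, many of them in the upper left.

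The KYSE70 knockdown library is the one with the highest mitochondrial share, 8.63% against 5.75% in its control. In that pair the change of a gene was also related to the GC content of its transcripts, with Spearman's rho of -0.483 across 13914 genes and -0.611 across 45 of the 46; in the other 3 pairs rho across all genes was 0.039 to 0.071. Across the 45 genes it was -0.213 in the KYSE450 knockdown pair, and 0.094 and 0.05 in the overexpression pairs of KYSE70 and KYSE450. With the GC trend removed within the pair, the KYSE70 median was -0.07 and the KYSE450 median 0.05. MCM3, MCM4, LIG1 and CDT1, of the 21 genes lower in KYSE70 and higher in KYSE450, were then above 0 in KYSE70. They were at 0.0077, 0.0086, 0.0645 and 0.1656. CDT1 and CHAF1A were at -0.0104 and -0.0011 in KYSE450. The others of the 21 kept their directions, save UHRF1, which had no adjusted value. Of the genes higher in both lines, GINS1 and RFC5 were then at -0.0019 and 0.0176 in KYSE70, and MCM6 at 0.206. Without either KYSE450 library of the knockdown arm, when only the KYSE70 pair carries the change and the spread comes from the overexpression arm, 17 of the 46 (2 higher, 15 lower) and 33.8% of all genes were called. Without either KYSE70 library 1 of the 46 was called, beside 4.07% of all genes without the control and 4.05% without the knockdown library. The overexpression change and the knockdown change were also set against each other directly: limma called 0 of 46 and 0% of all genes for the difference, with 0 of the 46 and 712 genes at an unadjusted p under 0.05, and voom 0.

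Other genes of the same processes, outside the 46, were followed for context. Between the lines, 5 of 16 other licensing and origin firing genes were higher in KYSE70 and 2 lower, among them GMNN, the inhibitor of CDT1, which had 122, 141, 161 and 116 FPKM in KYSE70 against 53.8, 62.1, 55.5 and 51.8 FPKM in KYSE450 (1.25 ± 0.12, SE, limma adjusted p 0.000183; overexpression, overexpression control, knockdown and knockdown control in that order). Over all tested genes 26.6% were higher and 27.4% lower, so these counts and the following ones are to be read against those shares. Of other fork and polymerase genes 4 of 18 were higher and 2 lower, of other nucleotide supply genes 4 of 13 and 1, of other G1/S control genes 9 of 18 and 1, and of other chromatin assembly genes 7 of 12 and 0. Among 22 mitotic genes 9 were higher and 3 lower. Between the arms, limma called TIMELESS, of the fork protection complex, lower in the knockdown arm (-0.81, adjusted p 0.0332) and the E2F-family repressor E2F8 lower (-0.99, adjusted p 0.0345), and no other gene of these lists. The 22 mitotic genes had none called but 21 of 22 below 0, against 41.8% of all tested genes, with a median of -0.21. Other chromatin assembly genes had 10 of 12 below 0 (median -0.21). The remaining lists were more mixed. Below 0 were 10 of 16 other licensing and origin firing genes (median -0.02) and 9 of 13 other nucleotide supply genes (-0.05). The counts were 11 of 18 for other fork and polymerase genes (-0.19) and 10 of 18 for other G1/S control genes (-0.17). With overexpression or knockdown no gene of these lists was called. As in the 46, most overexpression changes in the lists were below 0, against 53.5% of all tested genes. They were below 0 for 21 of 22 mitotic genes (median -0.11) and 15 of 16 other licensing and origin firing genes (median -0.12). The counts were 15 of 18 for other fork and polymerase genes and 11 of 13 for other nucleotide supply genes. They were 12 of 18 for other G1/S control genes and 11 of 12 for other chromatin assembly genes.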

How the data were processed

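The deposited values carry no unit in the file headers; from the values they were taken as FPKM made by the authors, 1 value per gene and library. Per the submitters' processing notes, TopHat2 2.0.9, HTSeq 0.6.1 and the build hg19 were used; annotation, filters and strand use were not stated in the sources used here. For all of the 30872 genes above 0 in at least 2 libraries (100%), values were whole multiples of a step within 0.02 of a whole number, which gave the recovered reads. The step of each gene was found by trial, so for genes above 0 in few libraries such a match says little. Tests used limma 3.58.1 (R 4.3.3, trend) on log2(FPKM + 1), which understates changes of low genes, over 14311 genes whose mean FPKM was 1 or more, two-sided, threshold 0.05 after Benjamini-Hochberg adjustment. Treatment changes were fitted with a term for each pair of same-line libraries, leaving 2 residual degrees of freedom. Line and arm differences were fitted with line and group terms, leaving 3. The pairing comes from the cell line labels, since each group holds 1 library of each line. Treatment p-values therefore rest on the spread between the lines' changes. Those of the line and arm differences rest on how much the line difference varied over the 4 groups. No group holds a repeat library of a line, and limma also moves each gene's spread toward that of genes of similar level. Exon overlaps, GC content, and neighbours were taken from GENCODE 29, which held 45 of the 46 genes (not UHRF1), and promoters from RefSeq; no coordinates were converted. The genes and lists were chosen with earlier results of these data known. Genes given in every library are those called in any comparison, up to 3 per direction with the largest same-sign change in both lines per treatment, and at least 1 of each role group. Alternatives were another pseudocount (0.1), minimum (5 or none), TMM and median-ratio scaling, voom, other terms, and leaving out each library.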

Additional observations from a re-analysis of the deposited data

Results flagged for a closer look

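For 6 results the change of a gene was above 0.2 on the log2 scale in one line and below -0.2 in the other, a minimum chosen after the values were seen. Each line gives 1 pair of libraries, and the difference between the lines was not tested. With overexpression, UHRF1 changed by 0.26 in KYSE70 and -0.33 in KYSE450, a difference of 0.59. With knockdown, UHRF1 changed by -1.25 in KYSE70 and 0.54 in KYSE450, a difference of -1.79. PCNA changed by -0.52 in KYSE70 and 0.29 in KYSE450 with knockdown, a difference of -0.81. RRM2 changed by -0.50 and 0.23 in those lines, a difference of -0.72. GINS3 changed by -0.23 and 0.37, a difference of -0.6. FEN1 changed by -0.24 and 0.23, a difference of -0.47. With the GC trend removed within each pair, the FEN1 changes were -0.06 and 0.22, so that of KYSE70 was inside the minimum. The knockdown changes of PCNA, RRM2 and GINS3 stayed beyond it in both lines, and UHRF1 had no adjusted value.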

How the results depend on the processing

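The numbers of the 46 genes called for overexpression, for knockdown and for the difference between both were 0 under each alternative that kept all 8 libraries or the 4 of 1 arm, and no gene called between lines or arms, nor any of the 9 with the largest same-sign treatment changes, changed sign in that comparison under an alternative run. Leaving out either KYSE70 library of the knockdown arm leaves only the KYSE450 pair to give the knockdown change. The median of the 46 was then 0.07, which is the KYSE450 pair median itself, against -0.05 with all libraries. Between the arms 5 were called, beside 4.02% of all tested genes. TMM gave 7 (3.49% of all genes), median-ratio scaling 6 (3.21%) and voom 8 (6.16%). The number was 0, with 0% of all genes, without a filter on low genes, with no replicate block (no cell line pairing) and over the controls only. Between the lines, 24 were called (54% of all genes), and 19 with no replicate block (50.3% of all genes). Leaving out 1 library at a time gave 14 to 25 genes between the lines, 0 to 16 between the arms, 0 to 17 for knockdown, 0 to 8 for overexpression minus knockdown, 0 to 12 for the line difference of the arm difference and 0 to 0 for overexpression. In those fits a group with a lone library is assumed to vary like the others; the cause of these shifts was not tested. Within pairs, the median change kept its sign under each scaling, pseudocount, GC and length alternative. With 2 libraries per group, treatment changes that are small beside the spread between the lines' changes are not detectable here. Each of the 46 genes had at least 129 recovered reads in every library.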
